A study of Mus musculus with 11 samples.

Results

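The genes described here are 8 cell adhesion genes of the mouse cochlear duct: the classical cadherins Cdh1 (E-cadherin), Cdh2 (N-cadherin), Cdh3 (P-cadherin) and Cdh4 (R-cadherin), the epithelial cell adhesion molecule Epcam, and the immunoglobulin superfamily genes Nrcam, Lsamp and Ncam1. They were taken by symbol and are 8 of 24898 gene rows found in any of the deposited tables, of which 18667, these 8 included, are in every table. Single cells were measured from the floor of the cochlear duct of wild-type CD1 mice at embryonic days 14 and 16 (E14, E16) and postnatal days 1 and 7 (P1, P7), with no genetic or drug treatment in the libraries used. E14 has 2 libraries, E16 has 3, P1 has 4 and P7 has 2, which makes 11 with 30634 cells. Each library pools the cochleae of several animals of either sex, one litter of pups for an embryonic library, and is an independent collection. The duct was freed with thermolysin, stroma, roof and lateral wall were cut away, and the cells were captured by 10x Chromium, which counts the 3′ ends of transcripts by unique molecular identifiers (UMIs).

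Classical cadherins are transmembrane proteins that bind the same cadherin on the neighbouring cell and are tied to actin inside the cell by catenins, so that they build the adherens junction. E-cadherin is the usual cadherin of epithelia and N-cadherin that of neural and mesenchymal tissue, and cells that carry different cadherins tend to sort apart. Epcam is a glycoprotein of the lateral membrane of epithelial cells that associates with claudin 7. Nrcam and Ncam1 are neural cell adhesion molecules with immunoglobulin and fibronectin domains, and Lsamp is a lipid-anchored protein of the IgLON family. The cochlear floor runs from interdental cells and Kölliker's organ on the medial side through inner hair cells, pillar cells, outer hair cells and Deiters' cells to Hensen's, Claudius and outer sulcus cells on the lateral side.

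The genes lie apart in the genome (RefSeq, GRCm38.p6): Cdh3 at 8:106510852-106556911 and Cdh1 at 8:106603350-106670247 are neighbours, 46.4 kb apart with 3 genes between them, and the others but Cdh2 are Cdh4 at 2:179442423-179899377, Epcam at 17:87635979-87651127, Nrcam at 12:44328786-44605194, Lsamp at 16:39984254-42181679 and Ncam1 at 9:49502129-49799393. A promoter window, from 250 bases before a start site to 50 after it, was at hand in RefSeq's sequences for 3 of the 8 genes. The start site is the first base of the gene as given above for Epcam, but not for Nrcam or Lsamp, whose windows were drawn around other start sites inside the gene. The window is printed for Epcam and Nrcam. Epcam was called lower in hair cells than in lateral sensory cells at all 4 ages, and Nrcam had its highest mean in lateral sensory cells at E14, E16 and P1. Epcam's window is chr17:87635729-87636028 and that of Nrcam chr12:44328635-44328934, both on the plus strand, and capitals mark E-boxes read as CACCTG or CAGGTG and GC boxes read as GGGCGG or CCGCCC.
Epcam: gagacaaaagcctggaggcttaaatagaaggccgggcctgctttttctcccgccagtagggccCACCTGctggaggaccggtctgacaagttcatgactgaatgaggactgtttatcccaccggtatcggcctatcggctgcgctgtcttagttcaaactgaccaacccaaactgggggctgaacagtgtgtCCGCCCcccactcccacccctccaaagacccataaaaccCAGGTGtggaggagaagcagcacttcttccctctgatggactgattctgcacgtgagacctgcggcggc
Nrcam: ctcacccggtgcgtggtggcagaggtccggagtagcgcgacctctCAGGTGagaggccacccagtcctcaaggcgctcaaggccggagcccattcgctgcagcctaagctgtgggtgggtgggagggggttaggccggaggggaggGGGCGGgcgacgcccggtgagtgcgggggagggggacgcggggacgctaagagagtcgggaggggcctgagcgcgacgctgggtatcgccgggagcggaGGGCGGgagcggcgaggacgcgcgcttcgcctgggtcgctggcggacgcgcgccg
The Epcam window holds 2 E-boxes, at positions -187 and -19 from the window's start site, and 1 GC box at -58, with 11 CpG, at percentile 58.6, and a GC content of 57%. The Nrcam window holds 1 E-box at -205 and GC boxes at -104 and -5 from its own start site, with 37 CpG, at percentile 94.4 of the 32851 windows, and a GC content of 74%. Of all windows 20.2% hold such an E-box and 35.7% such a GC box. Neither Lsamp window, at chr16:39984114-39984413 and chr16:41532576-41532875, holds either motif. A match is a run of letters and says nothing of a factor's binding.

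The deposited values were turned back into UMIs, scaled to a total of 1000000 per cell (counts per 1000000, CPM), and each library's mean was taken for each class of cells. Libraries held 1247 to 5598 cells, with medians of 2478 to 5648 UMIs per cell. As no file used here names each cell's type, cells were gated by marker lists that hold none of the 8 genes and come in part from the study's own marker tables. Hair cells had Pou4f3 (mean 1484 CPM at P1), lateral sensory cells had Prox1 (169.5 CPM) and Fgfr3 (350.5 CPM), medial sensory cells Matn4 (886 CPM), Kölliker's organ cells Tecta (1358 CPM), interdental cells Otoa (552 CPM), and lateral nonsensory cells Fst (1979 CPM). Lateral sensory cells stand for the lateral prosensory domain at E14 and E16 and for pillar and Deiters' cells later. Medial sensory cells stand for the medial prosensory domain and the cells beside the inner hair cells. Their markers Slc1a3, Fabp7 and Jag1 are also in the list for the lateral side of Kölliker's organ. The study places FABP7 in Kölliker's organ at its border with the organ of Corti. The medial sensory class may thus hold cells of that border, which was not tested. Each class is a range of marker scores, not a sorted type: from E14 to P7 66.0%, 71.3%, 61.0% and 48.2% of cells passed the gate, and 1084, 1437, 3316 and 826 cells lay within 0.1 of its limits. A clustering of the same cells, made without the 8 genes, put 81.7% or more of the hair cells and 87.1% or more of the lateral sensory cells of each age in clusters of the same name, but only 49.5% of the E14 medial sensory, 56.0% of the E14 interdental, 24.0% of the P7 medial sensory, 51.0% of the P7 Kölliker's organ and 54.4% of the P7 lateral nonsensory cells, and 0% of the P7 interdental cells. The remaining shares of the 6 axis classes were 72.0% or more. The clusters were named by their mean scores on the same marker lists, whose genes the clustering could also use. Agreement is thus in part built in and is no independent check of any class. Values of the 6 groups with shares of 56.0% or less, and contrasts with them, are of the gate alone. In E16 replicate 2 the summed blood list (4 haemoglobin genes) reached 1623 CPM in hair cells, 1394 in lateral sensory and 3097 in medial sensory cells. It reached 4349.8 in outer hair cells but 28.2 in inner hair cells. The other E16 libraries had at most 65.6 in the same classes, so calls lost without E16 replicate 2 are named. Cells sharing a barcode sequence with a cell of another library of the age numbered 22, 58, 168 and 18 at the 4 ages.

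The first question was how hair cells differ from the lateral sensory cells around them. All 8 genes differed at P1: Cdh2, Cdh4 and Ncam1 were higher in hair cells, and Cdh1, Cdh3, Epcam, Nrcam and Lsamp lower, between 1.60-fold (Cdh1) and 8.68-fold (Lsamp). Differences were tested with limma on log2(CPM + 10), with the library as a block and Benjamini-Hochberg adjustment of the p-values across every gene in the fit, and a call is an adjusted p under 0.05. At P1 59.5% of all genes tested were called, so that being called is no mark of the 8 genes at this age. At E14 3 of 8 genes were called against 10.8% of all genes, at E16 6 of 8 against 22.4%, and at P7 4 of 6 against 37.5%, since Cdh3 and Cdh4 were under the filter of a mean of 10 CPM. The E14 hair cell class holds 25 and 46 cells in its 2 libraries, the fewest of any age. On simulated data a far larger share of this age's calls were of unchanged genes than the threshold allows, which was not so at the later ages. Adjusted p-values of this E14 contrast are thus less firm than they read. The simulation gave all classes the same set spread beyond counting error. Its result at the later ages therefore does not show that their adjusted p-values are sound. Fold changes on this scale are smaller than the ratio of the means for weakly expressed genes.

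The second question was the axis from medial to lateral sensory cells, where the medial class may hold cells of the Kölliker's organ border. From medial to lateral sensory cells Cdh1 was higher at E14, E16 and P1, and Cdh2 was lower at all 4 ages. Of the 8 genes 3 were called at E14, 7 at E16, 7 at P1 and, of the 6 tested, 3 at P7, against 2.7%, 9.82%, 25.7% and 20.4% of all genes. This contrast shares the lateral sensory class with the one before it, so the 2 sets of values are not independent.

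The third comparison set the lateral nonsensory cells against Kölliker's organ, the 2 sides of the sensory domain. Cdh3 was higher on the lateral side at E14, E16 and P1, and Cdh2 and Cdh4 were higher on the medial side at the same ages. The calls were 3, 5 and 5 of 8 genes at E14, E16 and P1 and 2 of 6 at P7, against 7.16%, 8.9%, 22.1% and 2.77% of all genes. At P7 the called genes were Epcam and Nrcam, and both calls are of classes that the clusters did not bear out.

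**Figure D1:**
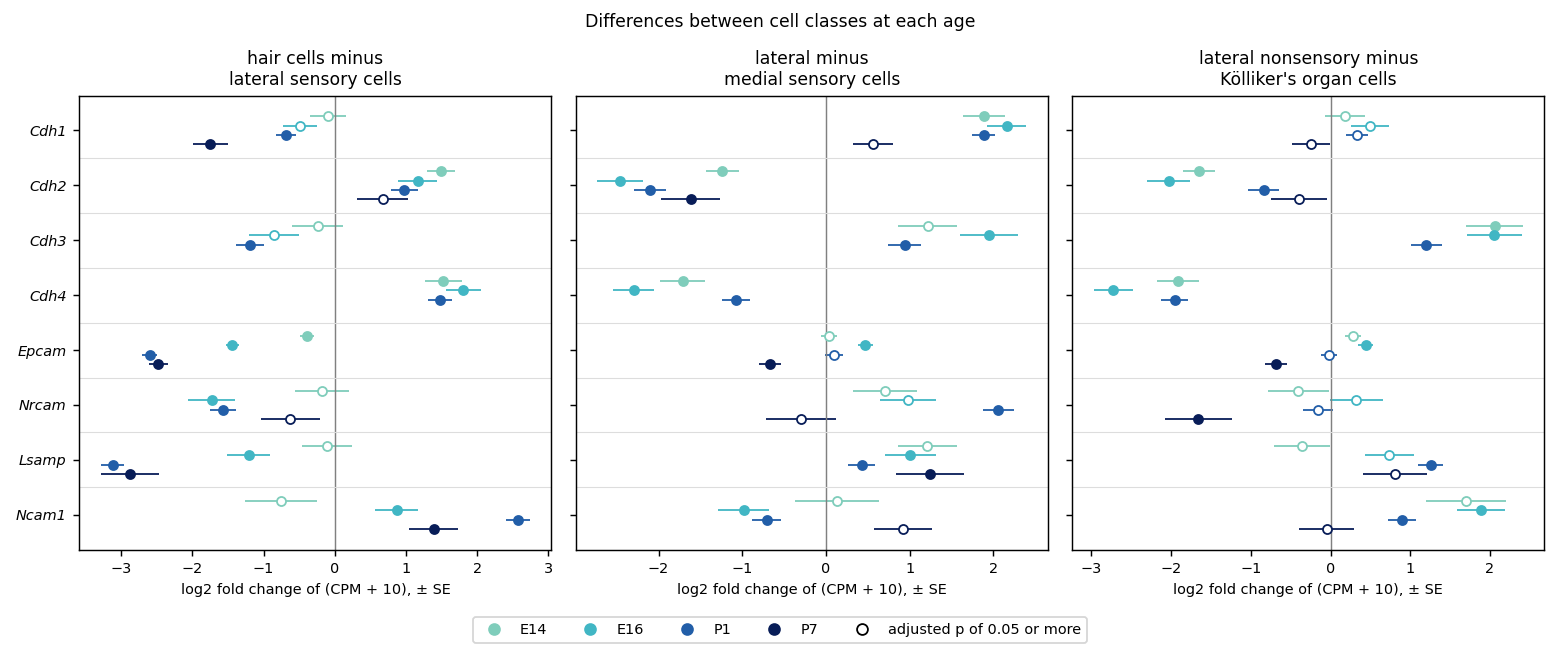
Log2 fold change of (CPM + 10) with its SE for each gene (rows) in hair minus lateral sensory cells, lateral minus medial sensory cells and lateral nonsensory minus Kölliker's organ cells (panels), with 1 point per age in 4 shades and open points for an adjusted p of 0.05 or more. Cdh2 and Cdh4 lie right of 0 in the first panel and left of 0 in the others. Cdh3 and Cdh4 have no P7 point because they fell under the filter.

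Cdh1, the E-cadherin gene of epithelial adherens junctions, was higher in lateral than in medial sensory cells at E14, E16 and P1. By mean level at P1 (CPM, mean ± SD, n = 4) the order was lateral sensory cells 239.9 ± 61.4, hair cells 145 ± 38.4, medial sensory cells 59.4 ± 26.2, interdental cells 59.1 ± 19.2, lateral nonsensory cells 53.9 ± 28.6 and Kölliker's organ cells 40.0 ± 19.4. Libraries overlapped between lateral sensory cells and hair cells, medial sensory cells and interdental cells, interdental cells and lateral nonsensory cells, lateral nonsensory cells and Kölliker's organ cells, and between no other neighbours. In the 4 P1 libraries it was at 156, 267, 237 and 299 CPM in lateral sensory cells and at 35.4, 60.5, 46.1 and 95.5 CPM in medial sensory cells, and the lowest lateral library lay above the highest medial one. The difference was 3.69-fold (log2 fold change 1.88 ± 0.14 (SE), adjusted p = 1.84e-11). At E14 the libraries gave 114 and 84.4 against 16.8 and 21.7 CPM, and at E16 233, 288 and 139 against 45.3, 48.3 and 27.7 CPM, again without overlap. The log2 fold changes were 1.89 ± 0.25 (adjusted p = 0.000429) and 2.16 ± 0.24 (adjusted p = 2.46e-07). At P7 medial sensory cells had 104 and 90.8 CPM and lateral sensory cells 165 and 133 CPM, a log2 difference of 0.56 ± 0.24 that was not called (adjusted p = 0.111). With clusters in place of the gate the P7 difference was 2.74 and was called (adjusted p = 0.0188).

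Within the lateral sensory cells of P1, split by marker lists into a side towards inner pillar cells and a side towards Deiters' cells, Cdh1 was at 83.9, 153, 154 and 216 CPM on the first side and 196, 356, 278 and 355 CPM on the second. It was higher on the Deiters' side in each of the 4 libraries, although the ranges of the 2 sides overlapped, and this split was not tested. In hair cells as a whole Cdh1 was at 102, 149, 137 and 195 CPM at P1 and at 37.8 and 36.6 CPM at P7, lower than in lateral sensory cells at both ages. The log2 fold changes were -0.68 ± 0.14 (adjusted p = 0.000122) and -1.75 ± 0.24 (adjusted p = 1.06e-05). At E14 (-0.10 ± 0.25, adjusted p = 0.839) and E16 (-0.48 ± 0.24, adjusted p = 0.16) the difference was not called. The P1 call was lost without the library block (adjusted p = 0.102) and the P7 call when clusters replaced the gate (adjusted p = 0.0681). Lateral nonsensory cells, at 29.1 to 91.5 CPM, and Kölliker's organ cells, at 20.1 to 65.6 CPM, overlapped at P1 (log2 fold change 0.33 ± 0.14, adjusted p = 0.0907).

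Cdh2, the N-cadherin gene, which lies on chromosome 18, was lower in lateral than in medial sensory cells, and medial sensory cells had its highest mean of the 6 classes at E16, P1 and P7. The P1 classes ranked, by mean CPM ± SD (n = 4), medial sensory cells 136 ± 10.3, hair cells 57.0 ± 3.87, Kölliker's organ cells 33.0 ± 3.73, lateral sensory cells 24.0 ± 1.01, interdental cells 18.3 ± 9.45 and lateral nonsensory cells 14.7 ± 6.60. Overlap of libraries between neighbours was seen for lateral sensory cells and interdental cells, interdental cells and lateral nonsensory cells, and between no other neighbours. The 4 P1 libraries gave 146, 127, 143 and 128 CPM in medial sensory cells, 53.2, 55.8, 56.6 and 62.4 CPM in hair cells and 25.0, 24.1, 24.4 and 22.6 CPM in lateral sensory cells. These 3 classes did not overlap. Cdh2 was 4.28-fold lower in lateral than in medial sensory cells (log2 fold change -2.10 ± 0.19 (SE), adjusted p = 1.09e-09). It was 1.97-fold higher in hair cells than in lateral sensory cells (log2 fold change 0.98 ± 0.19 (SE), adjusted p = 7.21e-05).

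At E14 Cdh2 was at 189 and 201 CPM in hair cells, 149 and 175 CPM in medial sensory cells and 54.6 and 71.8 CPM in lateral sensory cells. At E16 the same classes had 102, 70.5 and 67.1 CPM, 274, 199 and 164 CPM and 24.8, 40.8 and 25.0 CPM. Hair cells were above lateral sensory cells in every library at both ages, and below medial sensory cells in every library at E16. The log2 fold changes of hair against lateral sensory cells were 1.5 ± 0.20 (adjusted p = 0.000151) at E14 and 1.17 ± 0.27 (adjusted p = 0.00188) at E16. Those of lateral against medial sensory cells were -1.24 ± 0.20 (adjusted p = 0.00212) and -2.46 ± 0.27 (adjusted p = 2.37e-07). At P7 the levels were low, 38.8 and 35.3 CPM in medial sensory, 8.94 and 21.5 CPM in hair and 2.52 and 8.71 CPM in lateral sensory cells. Hair and lateral sensory cells did not pass the test there (0.67 ± 0.36, adjusted p = 0.151). The difference of lateral and medial sensory cells was called (-1.62 ± 0.36, adjusted p = 0.00314), but not with the stricter gate (adjusted p = 0.192) or with clusters (adjusted p = 0.573). At P7 a list of neuronal genes summed to 40.0 and 56.2 CPM in medial and 6.91 and 9.51 CPM in lateral sensory cells. A list of mesenchymal genes summed to 35.6 and 189 against 30.4 and 12.9 CPM. Their part in this difference was not tested. Outside the sensory domain Cdh2 was lower in lateral nonsensory than in Kölliker's organ cells, with log2 fold changes of -1.65 ± 0.20 (adjusted p = 3.91e-05) at E14, -2.03 ± 0.27 (adjusted p = 3.5e-06) at E16 and -0.84 ± 0.19 (adjusted p = 0.00158) at P1, and without a call at P7 (-0.40 ± 0.36, adjusted p = 0.728).

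Cdh4, the R-cadherin gene, had its highest mean in Kölliker's organ at E14, E16 and P1. From the highest to the lowest mean at P1 (CPM ± SD, n = 4) the classes were Kölliker's organ cells 137 ± 44.6, hair cells 71.9 ± 31.3, interdental cells 66.7 ± 40.2, medial sensory cells 49.6 ± 12.8, lateral nonsensory cells 27.7 ± 10.5 and lateral sensory cells 18.1 ± 5.93. Of neighbours in this order, overlap was found for hair cells and interdental cells, interdental cells and medial sensory cells, medial sensory cells and lateral nonsensory cells, lateral nonsensory cells and lateral sensory cells, and between no other neighbours. The P1 libraries had 103, 149.5, 195 and 101 CPM in Kölliker's organ cells against 18, 22.9, 42.4 and 27.6 CPM in lateral nonsensory cells, without overlap, a 3.87-fold difference (log2 fold change -1.95 ± 0.17 (SE), adjusted p = 7.32e-10). Its peak lay on the medial side of Kölliker's organ, at 121, 169, 219 and 114 CPM, against 50.2, 105, 86.3 and 85.5 CPM on the lateral side in a split that was not tested. The lower level on the lateral side was seen in each of the 4 libraries. At E14 and E16 the log2 fold changes of lateral nonsensory against Kölliker's organ cells were -1.92 ± 0.27 (adjusted p = 0.00018) and -2.72 ± 0.25 (adjusted p = 5.17e-09).

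Inside the sensory domain Cdh4 was low in lateral sensory cells, 11, 20.3, 24.9 and 16.1 CPM at P1, and higher in the other sensory classes: hair cells had 40.7, 101, 96.5 and 49.5 CPM and medial sensory cells 31.1, 57.9, 58.6 and 50.6 CPM. The lowest hair cell and medial sensory libraries were above the highest lateral sensory library. The log2 fold changes of hair against lateral sensory cells were 1.53 ± 0.27 (adjusted p = 0.00177) at E14, 1.81 ± 0.25 (adjusted p = 2.2e-06) at E16 and 1.48 ± 0.17 (adjusted p = 1.49e-08) at P1. Lateral sensory cells differed from medial ones by -1.71 ± 0.27 (adjusted p = 0.00181), -2.30 ± 0.25 (adjusted p = 1.81e-07) and -1.08 ± 0.17 (adjusted p = 1.32e-05) at the same ages. At P7 Cdh4 was at 14.7 and 13.7 CPM in hair cells and at 9.92 and 3.49 CPM in Kölliker's organ cells, and it was under the filter in every comparison between classes. Cdh4 overlaps 2 annotated genes with Gm names, Lsamp 5 and Ncam1 1, and how the counting handled shared reads is not given in the sources used here.

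Cdh3, the P-cadherin gene and the chromosomal neighbour of Cdh1, was higher in lateral nonsensory cells than in Kölliker's organ. Mean levels at P1 (CPM ± SD, n = 4) fell in the order interdental cells 24.9 ± 4.41, lateral nonsensory cells 24.7 ± 10.0, lateral sensory cells 22.9 ± 11.9, medial sensory cells 6.52 ± 3.28, Kölliker's organ cells 4.89 ± 3.30 and hair cells 3.79 ± 2.18. Neighbouring classes with overlapping libraries were interdental cells and lateral nonsensory cells, lateral nonsensory cells and lateral sensory cells, medial sensory cells and Kölliker's organ cells, Kölliker's organ cells and hair cells, and between no other neighbours. At E14 lateral nonsensory cells had 81.7 and 78.5 CPM and Kölliker's organ cells 8.89 and 14.9 CPM, and at E16 they had 96.9, 44.9 and 40.4 and 9.85, 5.30 and 3.61 CPM. At P1 the values were 28.7, 20.4, 13.4 and 36.5 against 2.54, 3.65, 3.57 and 9.78 CPM. The lateral libraries were above the medial ones at each of these ages, by log2 fold changes of 2.06 ± 0.36 (adjusted p = 0.00131), 2.05 ± 0.35 (adjusted p = 0.000107) and 1.2 ± 0.20 (adjusted p = 3.52e-05). Lateral sensory cells were also above medial ones at E16, 82.2, 27.0 and 39.2 against 0, 3.10 and 12.2 CPM, and at P1, 13.3, 32.4, 12.1 and 33.9 against 2.84, 6.11, 6.31 and 10.8 CPM. Those differences were 1.95 ± 0.35 (adjusted p = 0.000294) and 0.94 ± 0.20 (adjusted p = 0.000559) in log2, beside 1.21 ± 0.36 (adjusted p = 0.0915) at E14. Hair cells at P1 were at 3.91, 1.38, 6.63 and 3.25 CPM, below every lateral sensory library (-1.19 ± 0.20, adjusted p = 7.66e-06), and the E16 difference was not called (-0.85 ± 0.35, adjusted p = 0.0821). At P7 Cdh3 had 22 UMIs in all 3377 cells and was at 0 in both hair cell libraries. A count of 0 over that class allows up to 3 UMIs, or 1.58 CPM, a limit that covers counting error only.

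**Figure D2:**
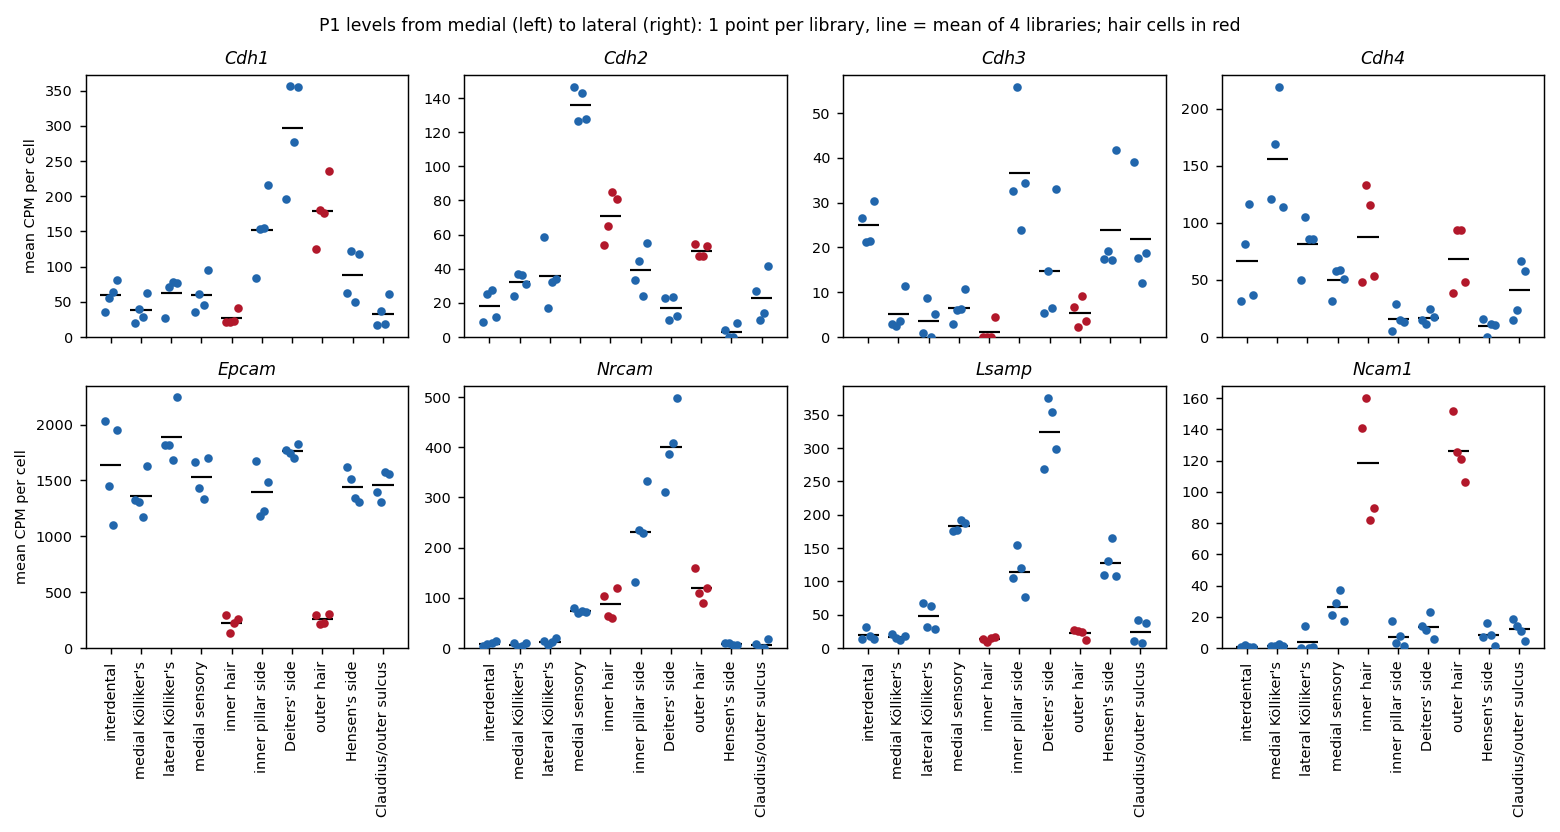
Mean CPM per cell of each gene (panels, each with its own linear scale) in 10 marker-gated groups of P1 cells, ordered from medial to lateral, with 1 point per library, a line for the mean of 4 libraries and hair cells in red. Cdh4 peaks in medial Kölliker's organ, Cdh2 in medial sensory cells, and Cdh1, Nrcam and Lsamp on the Deiters' side, while Epcam is at 301 CPM or less in all hair cell points and Ncam1 at 82.1 CPM or more.

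Among the 6 classes of the axis, Epcam was at 544 CPM or more in every library of each class but hair cells, and hair cells had its lowest mean at every age. By mean level at P1 (CPM, mean ± SD, n = 4) the order was interdental cells 1635 ± 438, lateral sensory cells 1632 ± 123, medial sensory cells 1531 ± 179, Kölliker's organ cells 1480.3 ± 243, lateral nonsensory cells 1446 ± 45.4 and hair cells 265 ± 57.1. Libraries overlapped between interdental cells and lateral sensory cells, lateral sensory cells and medial sensory cells, medial sensory cells and Kölliker's organ cells, Kölliker's organ cells and lateral nonsensory cells, and between no other neighbours. At P1 the hair cells of the 4 libraries were at 329.7, 205, 230.3 and 294 CPM, and lateral sensory cells at 1760.1, 1514, 1539 and 1714 CPM. Every hair cell library lay below every library of the other 5 classes. The difference was 6.06-fold (log2 fold change -2.60 ± 0.11 (SE), adjusted p = 7.28e-18). At E14 hair cells had 663 and 564 CPM against 828 and 782 CPM in lateral sensory cells (-0.39 ± 0.10, adjusted p = 0.0205). At E16 they had 343, 369 and 387 CPM against 887, 1073 and 1075 CPM (-1.44 ± 0.09, adjusted p = 3.05e-12), and at P7 337 and 261 against 2034 and 1421 CPM (-2.48 ± 0.13, adjusted p = 7.53e-11). The E14 call rests on 25 and 46 hair cells in the 2 libraries and was lost under 5 of 11 alternatives, with an adjusted p of 0.216 when only the 2 classes were fitted.

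The other classes lay closer together in Epcam. Lateral and medial sensory cells overlapped at P1 (log2 fold change 0.10 ± 0.11, adjusted p = 0.568). At E16 lateral sensory cells were higher, with a log2 difference of 0.47 ± 0.09 (adjusted p = 0.000959), a call that was lost without the library block (adjusted p = 0.0804) and with the stricter gate (adjusted p = 0.0545). At P7 they were lower, with a difference of -0.67 ± 0.13 (adjusted p = 0.00125), lost without the block (adjusted p = 0.109). Lateral nonsensory cells were above Kölliker's organ cells at E16 (0.44 ± 0.09, adjusted p = 0.00163) and below them at P7 (-0.69 ± 0.13, adjusted p = 0.00583). Without the block neither was called (adjusted p = 0.113 and 0.33). The P7 call was also lost with the stricter gate (adjusted p = 0.232) and with clusters (adjusted p = 0.0662). At P7 the mesenchyme list summed to 254 to 279.8 CPM in lateral nonsensory and 83 to 125 CPM in Kölliker's organ cells, and its part in the P7 difference was not tested.

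Nrcam was at 40.5 CPM or less outside the sensory domain up to P1, and lateral sensory cells had its highest mean at E14, E16 and P1. At P7 the highest mean was that of medial sensory cells, 75.1 CPM. The study named Nrcam, with Lsamp, among genes of the lateral prosensory cells on these same libraries, so its level there is not independent evidence. The P1 classes ranked, by mean CPM ± SD (n = 4), lateral sensory cells 345 ± 80.7, hair cells 109.7 ± 28.0, medial sensory cells 73.6 ± 4.12, interdental cells 8.98 ± 4.29, Kölliker's organ cells 8.52 ± 4.58 and lateral nonsensory cells 6.76 ± 5.20. Overlap of libraries between neighbours was seen for interdental cells and Kölliker's organ cells, Kölliker's organ cells and lateral nonsensory cells, and between no other neighbours. At P1 lateral sensory cells were at 259, 327, 340.0 and 453 CPM, medial sensory cells at 79.3, 69.6, 73.2 and 72.1 CPM and hair cells at 134, 89.7, 81.7 and 133 CPM. The lateral sensory libraries lay above all libraries of the other classes, and hair cells above medial sensory cells. The lateral sensory level was 4.17-fold that of medial sensory cells (log2 fold change 2.06 ± 0.19 (SE), adjusted p = 1.16e-09). It was 2.97-fold that of hair cells (hair cells minus lateral sensory cells, -1.57 ± 0.19, adjusted p = 3.88e-08). At E16 lateral sensory cells had 251, 388 and 206 CPM against 105, 85.4 and 45.9 CPM in hair cells (-1.73 ± 0.33, adjusted p = 0.000252) and 198, 84.9 and 137 CPM in medial sensory cells (log2 fold change 0.98 ± 0.33, adjusted p = 0.0623). The last difference was called under 5 of 14 alternatives and was 1.72 with clusters in place of the gate (adjusted p = 6.36e-05). At E14 lateral sensory cells were at 105 and 73.8 CPM, and neither difference was called. At P7 the 3 sensory classes lay between 32.0 and 89.5 CPM, again without a call between them. Kölliker's organ cells had 57.0 and 26.9 CPM and lateral nonsensory cells 14.7 and 0 CPM at P7, a difference (-1.66 ± 0.42, adjusted p = 0.0382) that was lost under 6 of 11 alternatives.

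Lsamp had its highest mean in lateral sensory cells at every age. Mean levels at P1 (CPM ± SD, n = 4) fell in the order lateral sensory cells 252 ± 41.3, medial sensory cells 183 ± 7.93, lateral nonsensory cells 62.3 ± 7.59, Kölliker's organ cells 20.6 ± 5.80, hair cells 20.1 ± 3.16 and interdental cells 18.9 ± 8.79. Neighbouring classes with overlapping libraries were Kölliker's organ cells and hair cells, hair cells and interdental cells, and between no other neighbours. At P1 the libraries gave 212, 295, 280.2 and 221 CPM in lateral sensory, 175, 178, 191 and 188 CPM in medial sensory and 21.5, 21.9, 21.6 and 15.3 CPM in hair cells. Hair cells were 8.68-fold lower than lateral sensory cells (log2 fold change -3.12 ± 0.16 (SE), adjusted p = 1.17e-15), with no overlap. The corresponding log2 fold changes were -1.21 ± 0.31 (adjusted p = 0.00405) at E16 and -2.88 ± 0.41 (adjusted p = 1.47e-05) at P7, and -0.11 ± 0.35 at E14 (adjusted p = 0.876). The E16 call was lost without E16 replicate 2 (adjusted p = 0.113) and with the stricter gate (adjusted p = 0.13). Between lateral and medial sensory cells the P1 log2 difference was 0.43 ± 0.16 (adjusted p = 0.0495), a call lost under 12 of 15 alternatives, among them without replicate 2 (adjusted p = 0.162), 3 (adjusted p = 0.197) or 4 (adjusted p = 0.0726). The E16 difference (1.01 ± 0.31, adjusted p = 0.0351) was lost under 6 of 14 alternatives, with adjusted p = 0.191 and 0.136 without replicates 2 and 3. That of P7 (1.24 ± 0.41, adjusted p = 0.0371) was lost under 5 of 11 alternatives. The E14 difference (1.21 ± 0.35, adjusted p = 0.0904) was not called. It was called with a pseudocount of 50 CPM (adjusted p = 0.0382), with summed UMIs (0.00558) and with only the 2 classes fitted (0.0031).

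On the lateral side, Lsamp was higher in lateral nonsensory than in Kölliker's organ cells at P1, at 51.8, 62.1, 66.6 and 68.9 against 29.0, 16.0, 17.6 and 19.8 CPM (1.25 ± 0.16, adjusted p = 8.39e-07), and the groups did not overlap. Within the lateral nonsensory cells the side with the higher Hensen's cell score had 110.4, 130, 165 and 108 CPM, and the side towards Claudius and outer sulcus cells 9.92, 41.5, 8.33 and 38.2 CPM. Every library of the first lay above every library of the second, in a split that was not tested. Within the lateral sensory cells Lsamp was at 106, 155, 121 and 76.6 CPM on the inner pillar side and 269, 375, 354 and 299 CPM on the Deiters' side, and Nrcam at 131, 235, 228 and 333 and 312, 387, 408 and 498 CPM. Both were higher on the Deiters' side in each library.

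Ncam1, which encodes the neural cell adhesion molecule, was called higher in hair cells than in lateral sensory cells at E16, P1 and P7. At P1 hair cells were far above the other 5 classes, but at E16 medial sensory cells had the highest mean of the 6 classes, 44.2 CPM. From the highest to the lowest mean at P1 (CPM ± SD, n = 4) the classes were hair cells 119.7 ± 19.8, medial sensory cells 26.2 ± 8.80, lateral nonsensory cells 12.4 ± 2.25, lateral sensory cells 12.1 ± 5.42, Kölliker's organ cells 2.01 ± 0.786 and interdental cells 0.91 ± 0.583. Of neighbours in this order, overlap was found for lateral nonsensory cells and lateral sensory cells, Kölliker's organ cells and interdental cells, and between no other neighbours. Hair cells were at 142, 131, 105 and 101 CPM and lateral sensory cells at 14.5, 9.05, 18.5 and 6.43 CPM in the 4 libraries, without overlap, a 5.95-fold difference (log2 fold change 2.57 ± 0.17 (SE), adjusted p = 2.75e-13). At P7 hair cells had 33.6 and 64.9 CPM against 7.14 and 17.8 CPM (1.39 ± 0.35, adjusted p = 0.00371), lost with a pseudocount of 1 CPM (adjusted p = 0.113) and with the stricter gate (adjusted p = 0.0619). At E16 they had 51.5, 24.6 and 43.9 against 15.2, 20.6 and 14.5 CPM (0.87 ± 0.30, adjusted p = 0.0395), a call lost under 8 of 14 alternatives, among them without replicate 1 (adjusted p = 0.158) or replicate 3 (adjusted p = 0.319). At E14 the 2 hair cell libraries, of 25 and 46 cells, had 0 and 41.4 CPM and lateral sensory cells 32.0 and 25.0 CPM, and no difference was detectable at this depth (log2 fold change -0.76 ± 0.50, adjusted p = 0.356).

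A list of 5 neuronal genes (Nefl, Nefm, Gap43, Snap25, Stmn2) summed to 558 to 1109 CPM in P1 hair cells against 5.51 to 30.3 CPM in lateral sensory cells and 106 to 409.7 CPM in Kölliker's organ cells. Of that list Nefm had a mean of 543 CPM in P1 hair cells, Nefl 329, Snap25 31.4, Stmn2 14.5 and Gap43 2.96, none of them at 0. A glial list of 8 genes summed to 118 to 207 and 96.4 to 158 CPM in hair and lateral sensory cells, which overlapped. Their part in the Ncam1 values was not tested. In the rest of the floor Ncam1 was higher in lateral nonsensory than in Kölliker's organ cells at E16, 44.6, 26.8 and 31.2 against 0.858, 1.82 and 2.84 CPM (1.88 ± 0.30, adjusted p = 5.87e-05), and at P1, 14.0, 12.2, 9.26 and 14.0 against 1.33, 2.92, 2.41 and 1.37 CPM (0.89 ± 0.17, adjusted p = 0.000236). Medial sensory cells were above lateral ones at P1 (lateral minus medial, -0.71 ± 0.17, adjusted p = 0.00221), which was lost with clusters (adjusted p = 0.136). The E16 difference (-0.98 ± 0.30, adjusted p = 0.0384) was lost under 8 of 14 alternatives, among them without any one of replicates 1 to 3 (adjusted p = 0.0997, 0.215 and 0.112).

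Inner and outer hair cells differed in Cdh1, and limma called no other of the 8 genes between them. The hair cells were divided by lists of inner and outer hair cell markers, and the 2 types of a library were compared. At P1 Cdh1 was at 125, 181, 176 and 235 CPM in outer hair cells and at 20.9, 20.8, 23.2 and 41.6 CPM in inner hair cells, and the types were far apart in every library. The difference was 5.18-fold (log2 fold change 2.37 ± 0.15 (SE), adjusted p = 4.32e-13). At E16 outer hair cells had 140.0, 232 and 121 CPM and inner hair cells 19, 36.0 and 11.6 CPM (2.46 ± 0.27, adjusted p = 4.06e-07), and at P7 64.2 and 45.9 and 10.6 and 16.5 CPM (1.46 ± 0.28, adjusted p = 0.00215). Again no library of the 2 types overlapped. The blood genes that stood out in the outer hair cells of E16 replicate 2 move with this E16 contrast, which was 2.49 (adjusted p = 0.000949) without that library. The list of 5 neuronal genes was higher in inner than in outer hair cells in each library. It summed to 723 to 964 against 210 to 364 CPM at E16, 681 to 1726 against 545 to 878 CPM at P1, and 459 to 697 against 141 to 143 CPM at P7. Its part was not tested. The calls were thus 1 of 8 genes at E16 and P1 and 1 of 6 at P7, against 3.47%, 7.91% and 5.35% of all genes tested. With clusters in place of the gate the P1 difference was 4.02 on the log2 scale, and the P7 call was lost (adjusted p = 0.255).

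Cdh2 and Cdh4 had lower means in outer than in inner hair cells at P1, but neither passed the test. Cdh2 was at 54.2, 47.2, 47.5 and 53.5 against 54.1, 64.9, 85.0 and 80.7 CPM (log2 fold change -0.41 ± 0.19, adjusted p = 0.218), and Cdh4 at 38.6, 94.1, 93.5 and 47.8 against 48.0, 133, 115 and 53.2 CPM (log2 fold change -0.28 ± 0.18, adjusted p = 0.386). The ranges of Ncam1 overlapped, at 152, 126, 121 and 106 CPM in outer and 141, 160.0, 82.1 and 89.9 CPM in inner hair cells, with a log2 difference of 0.12 ± 0.19 (adjusted p = 0.767). At an unadjusted p under 0.05 the counts were 3 genes at E16, 5 at P1 and 1 at P7, and with clusters in place of the gate 7 calls were made over the 3 ages, in place of 3.

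**Figure D3:**
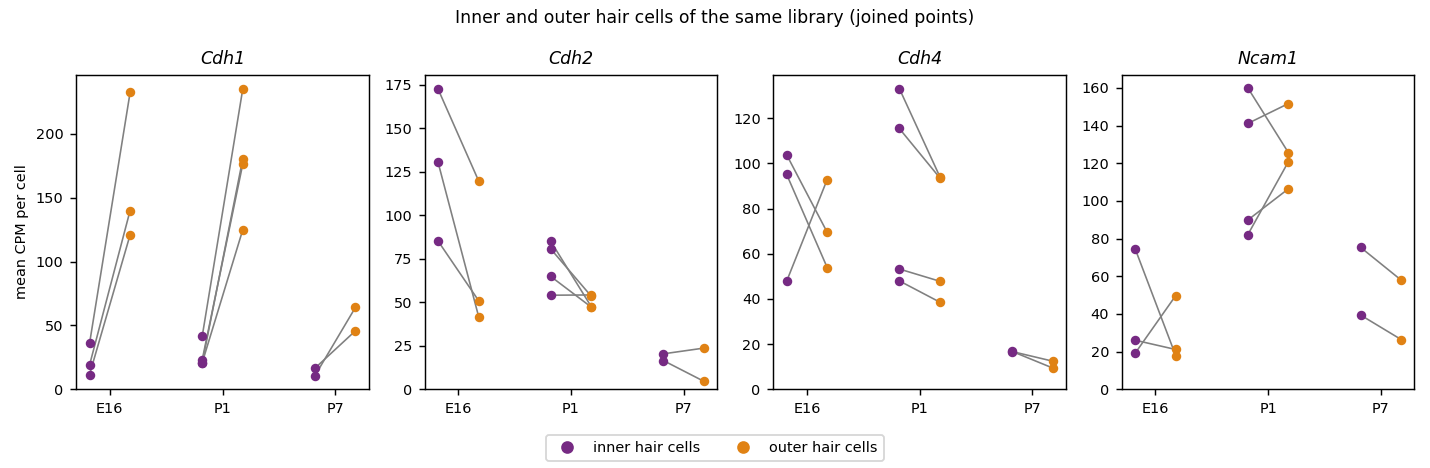
Mean CPM per cell (linear axes from 0) of Cdh1, Cdh2, Cdh4 and Ncam1 in inner (purple) and outer (orange) hair cells at E16, P1 and P7, with the 2 types of a library joined by a line. Every line rises for Cdh1, to 235 CPM at most, whereas for each of the other genes some lines rise and some fall.

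Between ages, each class was compared with the same class at the next age, with libraries as the only replicates. The classes at the 4 ages are not one set of cells followed in time, and the ages lie in separately filtered tables, whose values are shares of each cell. The mix of inner and outer hair cells also changed with age, and its part in the hair cell steps was not tested. In hair cells Cdh2 and Cdh3 were lower at E16 than at E14, with log2 changes of -1.21 ± 0.30 (adjusted p = 0.0105) and -1.01 ± 0.33 (adjusted p = 0.0451). Cdh3 and Lsamp were lower and Ncam1 higher at P1 than at E16, with changes of -1.16 ± 0.28 (adjusted p = 0.00721), -1.11 ± 0.29 (adjusted p = 0.013) and 1.40 ± 0.40 (adjusted p = 0.0207). From P1 to P7 Cdh1, Cdh2, Cdh4, Nrcam and Lsamp were lower, with changes of -1.69 ± 0.32 (adjusted p = 0.000661), -1.46 ± 0.29 (adjusted p = 0.00105), -1.68 ± 0.34 (adjusted p = 0.00124), -1.41 ± 0.32 (adjusted p = 0.00344) and -1.05 ± 0.33 (adjusted p = 0.0322). Ncam1, with hair cell means of 119.7 CPM at P1 and 49.3 CPM at P7, was not called at this step. Its fall was called with a pseudocount of 50 CPM (-0.78, adjusted p = 0.0191) and with clusters in place of the gate (-1.18, adjusted p = 0.024). The 3 steps gave 2, 3 and 5 calls of 8 genes, against 15.4%, 15.4% and 17.4% of all genes. Hair cell Epcam, at 564 to 663 CPM at E14 and 205 to 329.7 CPM at P1, passed the test at no step, with adjusted p-values of 0.06, 0.148 and 0.678. In hair cells the neuron list summed to 101 to 540.3 CPM at E14, 385 to 492 at E16, 558 to 1109 at P1 and 239 to 396 at P7, and the mesenchyme list to 3.35 to 4.41 CPM at P1 and 16.8 to 20.9 at P7. The blood list summed to 0 to 10.9 CPM at E14, 33.1 to 1623 at E16 and 0 to 3.36 at P1. The neuron list thus moved with Ncam1 from E16 to P1 and from P1 to P7. The blood list moved with the calls from E14 to E16 and from E16 to P1. The part of these lists was not tested.

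Several of these hair cell calls were lost when 1 library was left out (adjusted p in parentheses). Cdh3 from E14 to E16 was lost without E14 replicate 1 (0.247), E16 replicate 2 (0.0928) or E16 replicate 3 (0.13), and Cdh3 from E16 to P1 without E16 replicate 1 (0.0569). Lsamp from E16 to P1 was lost without E16 replicate 2 (0.0507) or 3 (0.0866). Ncam1 over the same step was lost without E16 replicate 2 (0.117) or P1 replicate 2 (0.0503). From P1 to P7 Cdh2 (0.0619) and Nrcam (0.0601) were lost without P7 replicate 4, and Lsamp without P1 replicate 1, 2 or 3 or either P7 library, with adjusted p-values of 0.0511 to 0.245. Cdh1 and Cdh4 kept their P7 calls without any one library. Other settings also ended calls. Cdh3 from E14 to E16 was lost with a pseudocount of 1 CPM (0.201), no filter (0.101), centring on the median over genes (0.0617) and the replicate number as a block (0.273). Ncam1 from E16 to P1 was lost with a pseudocount of 1 CPM (0.222) and no filter (0.0933). Lsamp from P1 to P7 was lost with a pseudocount of 50 CPM (0.192), no filter (0.0588) and without doublets (0.0636).

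In lateral sensory cells 1, 1 and 4 of 8 genes were called at the 3 steps, against 3.8%, 4.03% and 10.8% of all genes. Nrcam rose from 105 and 73.8 CPM at E14 to 251, 388 and 206 CPM at E16 (1.52 ± 0.30, adjusted p = 0.00536) and, from 259, 327, 340.0 and 453 CPM at P1, fell to 55.1 and 61.2 CPM at P7 (-2.35 ± 0.29, adjusted p = 8.38e-06). The P7 libraries lay below all of P1, and below all of E16. The first of these calls was lost without E14 replicate 2 (adjusted p = 0.138). Epcam was higher at P1 than at E16 (0.69 ± 0.19, adjusted p = 0.0439), lost under 9 of 16 alternatives, with adjusted p-values of 0.0637 to 0.227 without E16 replicate 1 or 2 or P1 replicate 2, 3 or 4. At P7 Lsamp was lower than at P1 (-1.29 ± 0.31, adjusted p = 0.00779), as were Cdh2 (-1.15 ± 0.33, adjusted p = 0.0248) and Cdh3 (-1.27 ± 0.40, adjusted p = 0.0439). All 3 were lost without P7 replicate 4 (adjusted p = 0.0937, 0.332 and 0.265) and without P7 replicate 5 (0.0767, 0.0541 and 0.186). Cdh2 was also lost without P1 replicate 2 (0.0534) or 3 (0.0598), and Cdh3 without P1 replicate 2 (0.114) or 4 (0.101). A pseudocount of 50 CPM and the stricter gate ended both the Cdh2 call (0.0987 and 0.141) and the Cdh3 call (0.189 and 0.114), and Cdh3 was lost with no filter (0.115) and with centring (0.0541). In lateral sensory cells the mesenchyme list summed to 0 to 5.61 CPM at P1 and 12.9 to 30.4 CPM at P7, and the blood list to 35.3 to 1394 CPM at E16 and 0.548 to 6.05 CPM at P1, and their part in these changes was not tested. Over all genes tested the median log2 change was -0.13, 0.09 and -0.10 at the 3 steps.

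In Kölliker's organ cells Cdh4 fell from P1 to P7 by more than any other of the 8 genes changed in any of the 9 steps compared. It was at 114 and 161 CPM at E14, 304, 205 and 155 CPM at E16, 103, 149.5, 195 and 101 CPM at P1 and 9.92 and 3.49 CPM at P7. The P7 libraries were far below all others, 8.68-fold lower than P1 (log2 fold change -3.12 ± 0.31 (SE), adjusted p = 2.8e-06). Markers of other cells moved with the steps between ages. In Kölliker's organ cells the neuron list summed to 23.7 to 29.7 CPM at E16 and 106 to 409.7 CPM at P1, and the blood list to 26.1 to 125 and 0.465 to 5.67 CPM. From P1 to P7, the mesenchyme list summed to 8.71 to 40.2 CPM at P1 and 83 to 125 CPM at P7, the neuron list to 106 to 409.7 and 5.55 to 7.45 CPM, and the glial list to 106 to 143 and 68.2 to 91.4 CPM. Their part in the changes was not tested. Epcam went from 544, 691 and 665 CPM at E16 to 1436, 1421, 1243 and 1821 CPM at P1 (1.2 ± 0.19, adjusted p = 0.000816) and to 2821 and 2003 CPM at P7 (0.69 ± 0.21, adjusted p = 0.0276), with no overlap of neighbouring ages. Cdh2 fell at both steps (-1.0 ± 0.18, adjusted p = 0.00252 and -0.92 ± 0.21 (adjusted p = 0.00441)). From P1 to P7 Lsamp was also lower (-1.16 ± 0.21, adjusted p = 0.000996) and Nrcam (1.46 ± 0.30, adjusted p = 0.00236) and Cdh1 (0.90 ± 0.31, adjusted p = 0.0465) higher. The 3 steps gave 0, 2 and 6 calls of the 6 genes that passed the filter (Cdh3 and Ncam1 did not, in this class), against 5.71%, 10.4% and 23.2% of all genes. At the first step, for which limma called none, 1 gene had an unadjusted p under 0.05, with no share over all genes at hand. The fit with the replicate number as a block called Cdh4 (adjusted p = 2.88e-05), although the numbers do not pair libraries of different ages. Only 51.0% of the P7 cells of this gate were in a cluster of the same name. Without P7 replicate 4 the calls of Cdh1 (adjusted p = 0.242), Epcam (0.332) and Nrcam (0.0852) at P7 were lost, and without P7 replicate 5 those of Cdh1 (0.147) and Cdh2 (0.0589). Leaving out P1 replicate 2 or 3 also ended those of Cdh1 (0.059 and 0.104) and Epcam (0.0564 and 0.0759), and leaving out P1 replicate 1 that of Cdh1 (0.0761). With the stricter gate the P7 calls of Cdh2 (0.104) and Cdh1 (0.0735) were lost, with a pseudocount of 1 CPM that of Cdh1 (0.0567), and without the filter those of Cdh1 (0.0818) and Epcam (0.0511).

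**Figure D4:**
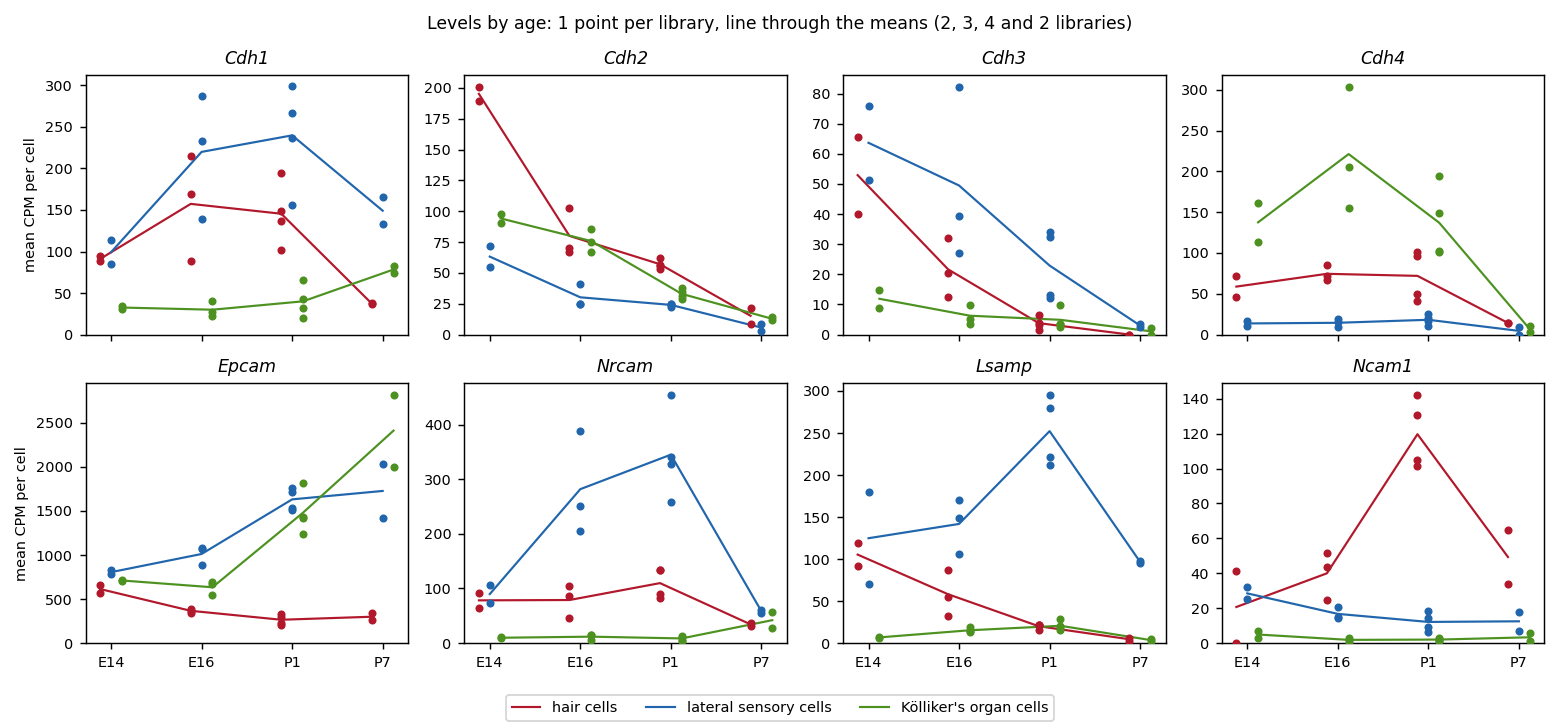
Mean CPM per cell of each gene (panels, linear axes from 0) at E14, E16, P1 and P7 in hair cells (red), lateral sensory cells (blue) and Kölliker's organ cells (green), with 1 point per library and a line through the means of 2, 3, 4 and 2 libraries. Epcam separates hair cells from the other classes from E16 on, Ncam1 is highest in hair cells at P1, and Cdh4 in Kölliker's organ is near 0 at P7.

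Whether a difference between classes was itself different at P1 and E16 was tested with an interaction of age and class. For hair minus lateral sensory cells 3 of 8 genes were called, against 14.5% of all genes. Epcam was lower in hair cells by more at P1 than at E16, with a log2 difference of the differences of -1.16 ± 0.15 (adjusted p = 1.71e-07). The value for Lsamp, also lower in hair cells by more at P1, was -1.91 ± 0.32 (adjusted p = 4.31e-05), and that for Ncam1, higher in hair cells by more at P1, was 1.70 ± 0.31 (adjusted p = 0.000139). For lateral minus medial sensory cells Cdh4 alone was called (1.22 ± 0.29, adjusted p = 0.0112) and was lower in lateral cells by less at P1, against 3.54% of all genes. That call was lost without the library block (adjusted p = 0.421) and with a weight for each class (adjusted p = 0.0564). For lateral nonsensory minus Kölliker's organ cells limma called 0 of 8, against 0.762% of all genes. At an unadjusted p under 0.05 there were 5, with no share over all genes at hand for that threshold. The nearest was Cdh2 (log2 difference 1.19 ± 0.33, adjusted p = 0.0816), which 4 alternatives called.

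The partners of the 8 genes were read from 6 lists in the same P1 fits, by counts and by the called gene that was highest and lowest. Of 7 adherens junction genes tested, the catenins, vinculin and afadin that tie cadherins to actin, 3 were higher and 3 lower in hair cells than in lateral sensory cells. Ctnnd2, the delta-catenin gene, was higher, at 2.41 ± 0.19, and Ctnnd1, the gene of p120-catenin, lower, at -1.58 ± 0.14 (log2 fold change ± SE). The list's median was 0.06 beside -0.01 for all genes. Of the list of neural immunoglobulin adhesion genes and their partners 6 were tested. Those higher were 2 immunoglobulin genes, Nfasc and Negr1, with the sialyltransferase gene St8sia2 and the ankyrin gene Ank3, whose log2 fold change was the largest of the 4 (2.40 ± 0.17), and 2 immunoglobulin genes were lower, led by Ntm (-2.39 ± 0.16), with a median over the list of 1.62. Ank3 encodes an anchor of such molecules on the membrane skeleton and is no adhesion molecule, and Ntm is an IgLON gene like Lsamp.

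Of 7 nectins and related genes 1 was higher and 5 lower in hair cells, with Nectin1 at 2.40 ± 0.18, Nectin3 at -1.85 ± 0.17 and a median of -0.96. Nectins join unlike partners across a cell border, and Nectin1 and Nectin3 are such a pair. Of 5 Epcam partners and proteases 3 were lower, led by Cldn7, the claudin that associates with Epcam (-2.19 ± 0.12), with a median of -1.07. Of 5 regulators of epithelial genes 3 were lower, led by the splicing factor gene Esrp1 (-1.69 ± 0.18), and none higher, with a median of -0.98. Of 18 further cadherin genes only Cdh11 passed the filter, and it was lower (-1.39 ± 0.24). With 59.5% of all genes called at P1, calls alone do not set these lists apart.

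In the contrast of lateral and medial sensory cells, with 25.7% of all genes called, 8 of 26 tested genes of the lists other than that of Epcam partners were called, 2 up and 1 down among the adherens junction genes, 1 and 1 among the nectins, 2 and 0 in the neural immunoglobulin list (Cntn1 and the enzyme gene St8sia2), and 0 and 1 among the regulators. Nectin3 (1.80 ± 0.17), Cntn1 of the contactins (2.0 ± 0.22) and Ctnnd1 (0.77 ± 0.14) were higher and Grhl1 (-0.63 ± 0.20), Ctnnd2 (-0.53 ± 0.19) and Cadm4 (-0.51 ± 0.17) lower in the lateral cells. St8sia2, singled out after its values were seen, which codes for an enzyme that adds polysialic acid to Ncam1, was higher in lateral than in medial sensory cells (1.61 ± 0.16) and higher in hair cells than in lateral sensory cells (1.87 ± 0.16). Lateral nonsensory cells exceeded Kölliker's organ cells in 4 of 7 adherens junction genes, led by Ctnnd2 (1.28 ± 0.19), and in Nectin2 (0.95 ± 0.10), Grhl1 (0.81 ± 0.20) and Cldn7 (0.47 ± 0.12), and were lower in Cadm1 (-0.88 ± 0.17). In all, 9 of 31 tested genes of the lists were higher and 1 lower on the lateral side, with 22.1% of all genes called. In outer against inner hair cells, where 3 of 29 were called against 7.91% of all genes, Vcl (0.62 ± 0.18) and Cadm4 (0.59 ± 0.19) were higher and Cldn7 lower (-0.93 ± 0.13).

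The genes most like each of the 8 over the 10 P1 groups shown along the axis were found by Pearson's r of log2(CPM + 10) among 8906 genes, as a description over points that share libraries and depth. They were Zcchc7 (0.900), Kat6b (0.893) and Ephb3 (0.890) for Cdh1, Bmt2 (0.892), Zfp469 (0.884) and Gtf2h3 (0.882) for Cdh2, Rack1 (0.957), Dhrs7 (0.954) and Rpl19 (0.927) for Cdh3 and D330041H03Rik (0.976) and Dguok (0.945) for Cdh4. For Epcam they were Fbxo30 (0.996), Mmp14 (0.995) and Cnn3 (0.990), for Nrcam Rab3b (0.972), Pcbp4 (0.970) and Sall1 (0.961), for Lsamp Taf5l (0.952), Prps2 (0.948) and Dok4 (0.947), and for Ncam1 Efr3a (0.979), Rab3ip (0.977) and Slc9a3r2 (0.976). Among the 8 genes themselves r over the same groups was 0.70 between Cdh1 and Nrcam and 0.64 between Cdh1 and Lsamp, the highest of all pairs. The lowest were -0.914 between Epcam and Ncam1, -0.755 between Cdh4 and Lsamp and -0.723 between Cdh3 and Cdh4. For the chromosomal neighbours Cdh1 and Cdh3 it was 0.32.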

How the data were processed

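Single cells of the cochlear duct floor were captured by 10x Chromium, and the authors aligned and counted reads with Cell Ranger 2.1.1 on mm10 and normalized with Seurat 2.0 (tool and build names per the labels and the study's methods). The deposited values are natural log values, ln(1 + UMIs per 10000 UMIs of the cell), for genes seen in at least 10 cells of an age. From them UMI counts per cell were recovered and scaled to counts per 1000000 UMIs (CPM), since each cell's smallest value is worth 1 UMI.

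Cells were gated by marker lists at each age: a class needs a mean z score of 0.3 or more and a lead of 0.25 over the next class. Classes with fewer than 5 cells in a library were left out. The mean CPM of each class and library was the unit of analysis. Cells are not replicates, and libraries are. Differences were tested with limma 3.58.1 (R 4.3.3, eBayes with trend, two-sided) on log2(CPM + 10). Genes whose mean was under 10 CPM were dropped, and all classes of an age were in one fit with the library as a block. Ages were compared within a class with no block. Benjamini-Hochberg adjustment ran over all genes tested, with a threshold of 0.05. Libraries of one age come from different litters or animals. Where the library was a block, p-values measure how differences between classes vary from library to library. That residual spread is shared by all classes of the fit. Between ages, with no block, p-values measure the spread between the libraries of a class. Clusters were made with scanpy 1.11.5 and leidenalg 0.10.2 from 2000 variable genes, 30 principal components, 20 neighbours and a resolution of 2. Doublets were kept, and cells that Scrublet called (0.0355% to 2.59% of a library) were removed in an alternative. Under 0.5% was called in each E14 and E16 library and in P1 replicate 4, so for these libraries that alternative says little about doublets. The labels name papain and the study's methods trypsin for dissociation. Where a share or level is 0, the limit is 3 UMIs.

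The fit was tested on simulated data with known changes, Poisson counts and the same set spread in every class, which the real classes need not share. At E14, where the hair cell class is small, the share of unchanged genes among its calls was far larger than the threshold allows. For that reason a weight for each class (limma arrayWeights) was added as an alternative after seeing the data.

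The 8 genes, the marker and pathway lists and the comparisons were chosen with earlier results of these data known. Many markers come from the study's own table for these libraries. Named from the pathway lists are the called gene with the largest rise and the one with the largest fall in each list in the P1 contrasts, and as most like a gene the 3 with the highest Pearson's r. One gene of the Epcam partner list and one gene most like Cdh4 are not reported here. The alternatives tried were pseudocounts of 1 and 50 CPM, no filter, summed UMIs, centring on the median gene, a stricter gate (score and lead of 0.5), clusters in place of the gate, no doublets, no block or a replicate block, a fit of only the classes compared, and leaving out each library. Replicate numbers did not pair libraries of different ages.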

Additional observations from a re-analysis of the deposited data

Results flagged for a closer look

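In 5 of 64 groups of 4 P1 libraries, 1 library stood apart from the other 3 by Dixon's criterion, which chance meets in about 1 in 20 groups. In each case it was P1 replicate 4. This library had a median of 3831.5 UMIs per cell, against 5227 to 5647.5 in the other P1 libraries. Of its cells 53.5% passed the gate, against 63.1% to 68.2% in the others. The part of these differences in the flagged values was not tested. Cdh1 was at 41.6 CPM in its inner hair cells, with the other libraries at 23.2 CPM or less. Cdh3 was at 9.79 CPM in its Kölliker's organ cells, with the others at 3.65 CPM or less, and at 4.46 CPM in its inner hair cells, with the others at 0. With the others tied at 0, any count in this library meets the criterion, so the rate for chance does not hold for that group. Lsamp was at 15.3 CPM in its hair cells, with the others at 21.5 CPM or more, and at 12.8 CPM in its outer hair cells, with the others at 24.8 CPM or more. The hair cell groups overlap, so the 2 Lsamp values are not independent.

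For 4 genes the difference between classes itself differed between P1 and E16 (limma, interaction of age and class, libraries as block). For hair minus lateral sensory cells the log2 difference of differences was -1.16 for Epcam, -1.91 for Lsamp and 1.70 for Ncam1, with 14.5% of all genes called. For lateral minus medial sensory cells it was 1.22 for Cdh4, with 3.54% of all genes called. The Cdh4 call was lost without the library block (adjusted p = 0.421) and with a weight for each class (adjusted p = 0.0564).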

How the results depend on the processing

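Of 202 tested results for the 8 genes, 87 were called. Of these, 52 kept the call under every alternative run for them, and 35 lost it under at least 1. These totals have no share over all genes beside them and are no mark of the 8 genes. A further 29 gained a call under at least 1. None of the 2822 alternative values had the opposite sign to a call. Calls were lost most often with the stricter gate (15), with no filter on low values (14) and with no library block (12), and the cause was not tested. Numbers of calls stayed within 1.5 times the reported ones in all but 2 cases. For outer against inner hair cells there were 3 calls, and 7 with clusters in place of the gate, with no share over all genes at hand for that setting. For consecutive ages there were 24 calls, and 15 without P7 replicate 4, the lowest of a range of 15 to 25 over single libraries left out. The same range was 20 to 21 around 21 for hair against lateral sensory cells, 18 to 20 around 20 for lateral against medial sensory cells, and 15 to 16 around 15 for lateral nonsensory against Kölliker's organ cells.

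With no replicate block the within-age comparisons gave 18, 15, 12 and 3 calls in the order hair, sensory, nonsensory and hair cell types, and the change from E16 to P1 gave 3. With the replicate number as a block the ages gave 27 calls, P7 against P1 being kept as reported because these ages share 1 number only. The numbers did not pair libraries: correlations of same-numbered libraries' deviations ran from -0.184 to 0.0697. A weight for each class, chosen after seeing the data, ended 7 calls. Leaving out a library of E14 or P7 left no residual degrees of freedom within the age, so those within-age values have no test.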

Other observations

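Cells outside the axis classes also held these genes. The roof cells of the duct, which carry Oc90, had Cdh1 at 92.9 and 98.1 CPM at E14 and 101, 110.5 and 102 CPM at E16, and Epcam at 1190.4 and 1205 CPM at E14. In the 2 P7 libraries Ncam1 was at 55.9 and 81.3 CPM in cells gated by glial markers and 58.5 and 69.3 CPM in those gated by mesenchymal markers, and Lsamp at 88.6 and 101 CPM in the latter. The glial gate also had Cdh1 at 93.1 and 79.2 and Epcam at 22.6 and 87.5 CPM, and the mesenchymal gate Epcam at 227 and 84.3 and Cdh2 at 49.6 and 31.1 CPM. None of these values was tested.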
